A study of Mus musculus with 9 samples.

Results

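The genes described here are 10 markers of the non-parenchymal cells that line and support the liver sinusoid. They are 5 endothelial genes (Stab2, Clec4g, Kdr, Pecam1 and Lyve1) and 5 genes of stellate cells and fibroblasts (Col1a1, Col1a2, Col3a1, Des and Lrat). They were chosen by symbol, and all 10 were found among the 55335 genes of the expression table. Liver RNA of 9 B6D2F2 mice was sequenced, 3 in each of 3 conception groups. The NC mice (1, 5 and 6) were conceived naturally and carried by their own mothers. The IVF mice (2, 3 and 4) came from oocytes fertilized in vitro, whose embryos were placed fresh in foster mothers of the ICR strain. The FET mice (2, 3 and 4) came from embryos made in the same way, then frozen slowly, stored, thawed and transferred into ICR foster mothers. Superovulation, embryo culture, transfer and the ICR foster mother were thus shared by the IVF and FET groups and absent from the NC group, so they cannot be told apart from one another in a comparison with NC. Freezing and thawing separated FET from IVF. All mice were 20 weeks old and had fasted for 4 h. According to the study's methods they were males on a chow diet with B6D2F1/J parents.

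The endothelium of the sinusoid is perforated and takes up waste molecules from blood through scavenger and lectin receptors. Stellate cells lie between this endothelium and the hepatocytes, store vitamin A as retinyl esters, and become the main source of fibrillar collagen when the liver scars. In whole liver RNA both cell types are a minority beside hepatocytes, so their transcripts are diluted. Fewer cells of a type and less RNA per cell cannot be told apart in such samples.

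RefSeq windows before the transcription start (build GRCm38.p6) matched 7 of the 10 genes. The windows of Clec4g and Col3a1 are shown because these genes had the highest mean level of their cell type, and that of Lrat because its enzyme defines the vitamin A store of stellate cells. No annotated exon overlapped any of these 3 windows. Each is 250 bases long, is written 5′ to 3′ on the gene's strand and ends at the base before the start. Capitals mark matches on either strand to 3 core promoter motifs, TATAAA of the TATA box, CCAAT of the CCAAT box and GGGCGG of the GC box.
Clec4g, chr8:3720652-3720901, minus strand: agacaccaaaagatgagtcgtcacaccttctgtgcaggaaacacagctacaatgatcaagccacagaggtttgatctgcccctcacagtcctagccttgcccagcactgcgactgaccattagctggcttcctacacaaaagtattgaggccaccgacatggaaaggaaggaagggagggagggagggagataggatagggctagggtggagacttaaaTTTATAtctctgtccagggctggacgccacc
Col3a1, chr1:45311288-45311537, plus strand: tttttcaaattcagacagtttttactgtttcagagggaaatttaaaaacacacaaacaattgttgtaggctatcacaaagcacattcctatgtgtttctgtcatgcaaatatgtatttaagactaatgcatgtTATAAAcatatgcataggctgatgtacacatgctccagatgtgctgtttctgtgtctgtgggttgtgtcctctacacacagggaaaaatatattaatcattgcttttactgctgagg
Lrat, chr3:82903975-82904224, minus strand: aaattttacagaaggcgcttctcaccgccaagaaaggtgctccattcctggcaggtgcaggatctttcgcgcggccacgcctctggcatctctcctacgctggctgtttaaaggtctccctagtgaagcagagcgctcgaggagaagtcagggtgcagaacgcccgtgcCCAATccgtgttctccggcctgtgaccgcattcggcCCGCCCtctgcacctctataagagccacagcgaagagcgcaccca

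The motif TATAAA was present in 12.4% of 32851 windows of this length. Its match in the Clec4g window was to the reverse complement and began 31 bases before the start, and the match in the Col3a1 window lay further upstream, on the printed strand. The Lrat window held CCAAT, found in 33.8% of windows, and GGGCGG in reverse complement, found in 32.7%. No matches overlapped one another. GC content was 52.0% for Clec4g, 35.2% for Col3a1 and 59.2% for Lrat, with a median of 52.4% over all windows. These matches describe letters, not binding.

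The values are FPKM, in which a gene's fragments are divided by its length and by the size of the library. The size was estimated from low values, which take steps of 1 fragment, and came to 6630692, 11937793 and 13379307 mapped fragments in NC mice 1, 5 and 6. It was 8429262, 4502844 and 3875634 in IVF mice 2, 3 and 4, and 2021236, 2811475 and 2923288 in FET mice 2, 3 and 4. Every FET library was thus shallower than every other library. Nuclear protein-coding genes took only 4.4% to 29.3% of the summed FPKM. Mitochondrial genes took 27.6% to 55.3%, and 3 noncoding RNA genes took 3.5% to 61.9%. IVF mouse 2 and FET mouse 4 had the lowest protein-coding share, 4.4% in each. FET mouse 2 stood apart by 1371 of 6755 tested genes at 0, against 154 to 980 in the other mice, and its housekeeping gene Pgk1 was listed at 0. Values are therefore given as deposited and, for most comparisons, also after rescaling each mouse to the mean sum over nuclear protein-coding genes, called rescaled FPKM below. The hepatocyte list was present in every mouse, with a summed rescaled FPKM of 17949 to 30263 over its 10 genes.

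The 10 markers were low in these libraries. The 5 endothelial genes summed to 6.5, 7.19 and 10.79 FPKM in NC mice 1, 5 and 6, to 2.32, 5.97 and 6.69 in IVF mice 2, 3 and 4, and to 5.07, 6.65 and 5.09 in FET mice 2, 3 and 4. The 5 stellate genes summed to 4.6, 5.81 and 5.97 in the NC mice, to 2.04, 6.82 and 11.79 in the IVF mice and to 3.7, 7.74 and 5.09 in the FET mice, in the same order. The groups overlapped in both sums. After rescaling, FET mouse 4 stood highest in both sums, at 12.88 and 12.87, while the other mice lay between 3.33 and 7.95 for endothelial and between 4.38 and 7.16 for stellate genes. The ratio of the stellate to the endothelial sum, which does not depend on the scaling of a library, was 0.708, 0.808 and 0.553 in the NC mice, 0.879, 1.142 and 1.763 in the IVF mice and 0.729, 1.164 and 0.999 in the FET mice. Every IVF mouse lay above every NC mouse in this ratio, and the FET mice overlapped both groups; the ratio was examined after the values had been seen and carries no test.

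**Figure D1:**
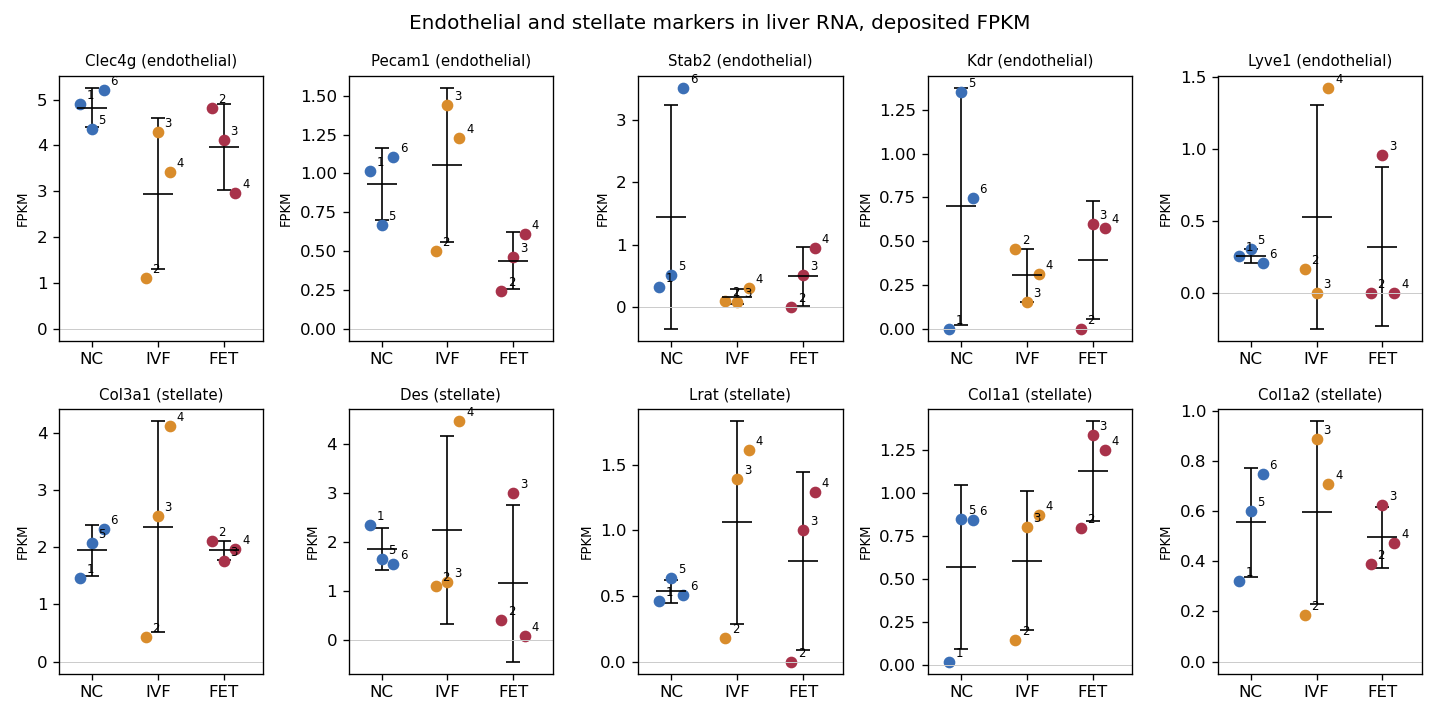
Deposited FPKM (y axis) of each of the 10 markers by group (x axis), with a point and number for each mouse and a bar for the mean ± SD of 3 mice. Clec4g lies at 1.111 to 5.209 FPKM, while Lyve1 and Kdr reach 0 in 3 and 2 mice.

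Ordered by the mean over 9 mice, Clec4g came first at 3.913 ± 1.27 FPKM (SD, n = 9). Col3a1 (2.088 ± 0.977), Des (1.756 ± 1.354), Pecam1 (0.808 ± 0.404), Lrat (0.787 ± 0.565) and Col1a1 (0.77 ± 0.437) followed. The lowest were Stab2 (0.697 ± 1.099), Col1a2 (0.549 ± 0.225), Kdr (0.465 ± 0.425) and Lyve1 (0.369 ± 0.495). Only between Clec4g and Col3a1 did neighbours in this order differ by more than the spread of their difference over mice, 1.825 ± 1.299 FPKM (SD, n = 9), with Clec4g higher in 8 of 9 mice. The 8 other neighbouring pairs differed by less than that spread, so their order is not fixed by these data. In the whole table, 2605 genes had a higher mean FPKM than Clec4g and 10965 a higher one than Lyve1. Strandedness of the libraries is not given in the sources used here, and 4 of the 10 markers (Clec4g, Des, Lrat and Stab2) overlap annotated genes on the opposite strand, whose mean FPKM was at most 0.043.

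The estimated number of fragments sets the precision of these levels. All 10 markers together received 342, 900 and 1392 fragments in NC mice 1, 5 and 6, but 201, 337 and 411 in the IVF mice and 92, 214 and 191 in the FET mice. In FET mouse 2, 7 of the 10 markers had fewer than 10 fragments and 4 of those had none, while no marker in NC mouse 5 or IVF mouse 4 had fewer than 10. A count of 0 in FET mouse 2 allows up to 0.169 FPKM of Stab2, 0.164 of Kdr, 0.277 of Lrat and 0.508 of Lyve1 (3 fragments in that library). The limit for Lrat lay below the values of 7 of the other 8 mice, and that for Lyve1 below only 2 of them. Counting error is the only error these fragment numbers describe.

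**Figure D2:**
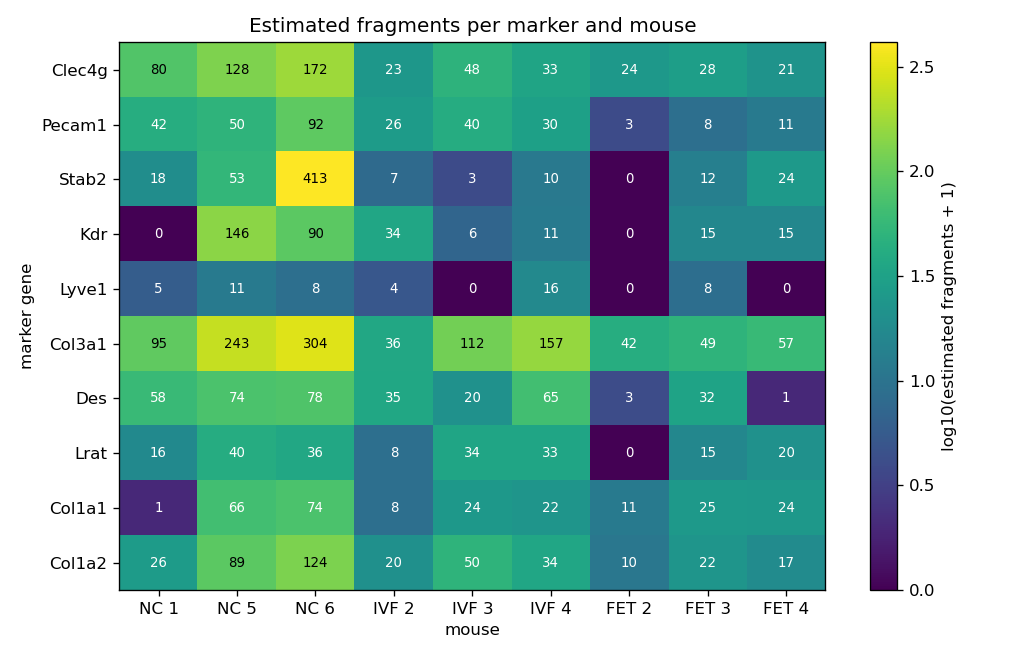
Estimated fragments (number in each cell, colour as log10 of the number + 1) for each marker (rows) in each mouse (columns). Stab2 in NC mouse 6 holds the most, 412.8 fragments, and the column of FET mouse 2 holds none above 41.8.

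Clec4g (ENSMUSG00000074491, chr8:3707064-3720651, minus strand) encodes a C-type lectin of sinusoidal endothelium. Its FPKM was 4.909, 4.368 and 5.209 in NC mice 1, 5 and 6, 1.111, 4.300 and 3.419 in IVF mice 2, 3 and 4, and 4.824, 4.118 and 2.959 in FET mice 2, 3 and 4. Every IVF mouse lay below every NC mouse, though IVF mouse 3 was only 0.068 FPKM below NC mouse 5. In limma, Clec4g differed by -0.66 ± 0.68 (log2, SE) in IVF against NC with an adjusted p of 1, and by -0.25 ± 0.68 in FET against NC with an adjusted p of 0.921. Without IVF mouse 2 the former was -0.27, and without FET mouse 4 the latter was -0.09. After rescaling the values were 6.009, 3.63 and 3.82 in NC, 3.257, 4.517 and 1.704 in IVF, and 6.064, 3.658 and 7.487 in FET. The groups then overlapped, and the FET against NC difference turned to 0.28 ± 0.38 with an adjusted p of 0.745.

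Stab2 (ENSMUSG00000035459, chr10:86841198-87008025, minus strand) encodes a scavenger receptor that clears hyaluronan. Its FPKM was 0.314, 0.503 and 3.523 in NC mice 1, 5 and 6, 0.097, 0.077 and 0.303 in IVF mice 2, 3 and 4, and 0, 0.503 and 0.951 in FET mice 2, 3 and 4. NC mouse 6 stood far above the rest, with 412.8 estimated fragments against 52.6 in NC mouse 5, and no other endothelial marker was raised in that mouse to a like degree. All IVF mice were below all NC mice before and after rescaling, by -0.85 and -0.71 on the log2(value + 1) scale, with an exact permutation p of 0.1 in each case, the smallest p that 3 mice against 3 allow. These differences rested largely on NC mouse 6, and without it they were -0.28 and -0.26. The gap between the highest IVF mouse and the lowest NC mouse was 0.011 FPKM, and these 2 values rested on 10.3 and 18.3 fragments. Against NC, the FET mice overlapped (exact permutation p = 0.6).

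Pecam1 (ENSMUSG00000020717, chr11:106654217-106750628, minus strand) encodes an adhesion protein of endothelial junctions. Its FPKM was 1.019, 0.666 and 1.109 in the NC mice, 0.498, 1.442 and 1.228 in the IVF mice and 0.242, 0.464 and 0.607 in the FET mice. All FET mice lay below all NC mice, by -0.43 on the log2(FPKM + 1) scale (exact permutation p = 0.1). After rescaling, FET mouse 4 at 1.536 was the highest of all 9 mice and the groups overlapped (-0.15, exact permutation p = 0.7). The FET values rested on 3.0, 8.1 and 11.1 fragments.

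Kdr (ENSMUSG00000062960, chr5:75932827-75978458, minus strand), the main signalling receptor for vascular endothelial growth factor, was at 0, 1.350 and 0.746 FPKM in the NC mice, 0.453, 0.150 and 0.310 in the IVF mice and 0, 0.6 and 0.576 in the FET mice. NC mouse 1 had no Kdr in a library of 6630692 fragments, where a count of 0 allows up to 0.05 FPKM (3 fragments). Lyve1 (ENSMUSG00000030787, chr7:110850607-110863239, minus strand), a hyaluronan receptor, was at 0.254, 0.306 and 0.207 FPKM in the NC mice, 0.165, 0 and 1.426 in the IVF mice and 0, 0.962 and 0 in the FET mice. Its 3 NC values lay close together, and the IVF and FET mice fell on both sides of them. For both genes all groups overlapped under both scalings, with two-sided exact permutation p values from 0.5 to 1.

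The stellate genes hold 3 fibrillar collagen chains. Col3a1 (ENSMUSG00000026043, chr1:45311538-45349706, plus strand), which encodes the type III chain, was at 1.458, 2.070 and 2.316 FPKM in the NC mice, 0.434, 2.543 and 4.119 in the IVF mice and 2.104, 1.768 and 1.977 in the FET mice. The FET mice lay within the NC range, and IVF mouse 4 was the highest. In limma the difference was 0.01 ± 0.61 in FET against NC, with an adjusted p of 0.996. After rescaling, the NC mice were 1.784, 1.72 and 1.698 and FET mouse 4 was the highest at 5.002, so the FET against NC difference became 0.49 ± 0.38 with an adjusted p of 0.535.

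Col1a1 (ENSMUSG00000001506, chr11:94936224-94953042, plus strand) and Col1a2 (ENSMUSG00000029661, chr6:4504814-4541544, plus strand) encode the chains of type I collagen. Col1a1 was at 0.023, 0.848 and 0.846 FPKM in the NC mice, 0.145, 0.806 and 0.875 in the IVF mice and 0.8, 1.337 and 1.253 in the FET mice. FET mouse 2 overlapped the other groups as FPKM. After rescaling, all 3 FET mice (1.005, 1.188 and 3.17) lay above all NC mice (0.029, 0.705 and 0.621) and all IVF mice (0.424, 0.847 and 0.436). The differences were then 0.9 and 0.76 on the log2(value + 1) scale, each with an exact permutation p of 0.1. Without FET mouse 4, the highest, they were 0.56 and 0.43. The lowest, NC mouse 1, held 1.0 fragment of Col1a1, and no difference without that mouse was taken. Col1a2 was at 0.320, 0.601 and 0.748 FPKM in the NC mice, 0.187, 0.889 and 0.711 in the IVF mice and 0.388, 0.626 and 0.473 in the FET mice, and its groups overlapped under both scalings.

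The ratio of Col1a1 to Col1a2 FPKM within a mouse does not depend on how libraries are scaled. It was 0.072, 1.411 and 1.131 in NC mice 1, 5 and 6, 0.775, 0.907 and 1.231 in the IVF mice and 2.062, 2.136 and 2.649 in the FET mice. Every FET mouse lay above every other mouse. The difference of the mean log2 ratios was 2.21 in FET against NC and 1.25 in FET against IVF, and 0.96 in IVF against NC. This ratio was chosen after the values had been seen and carries no test. NC mouse 1 held about 1 fragment of Col1a1, and without it the difference was 0.84 in FET against NC and turned to -0.41 in IVF against NC. The FET ratios rested on 10.6, 24.7 and 24.0 fragments of Col1a1 and 9.8, 21.9 and 17.2 of Col1a2.

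**Figure D3:**
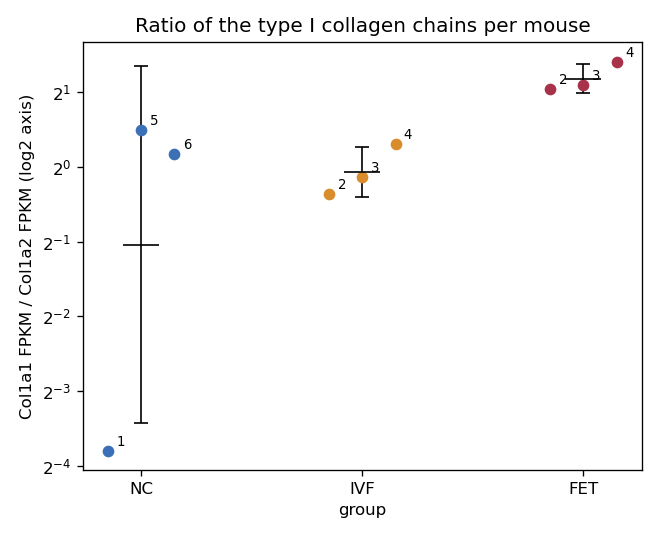
Ratio of Col1a1 to Col1a2 FPKM (y axis, log2 scale) by group (x axis), with a numbered point for each mouse and a bar for the mean ± SD of the log2 ratios of 3 mice. The FET mice lie at 2.062 to 2.649, above the other 6 mice, of which the highest is NC mouse 5 at 1.411.

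Des (ENSMUSG00000026208, chr1:75360329-75368579, plus strand) encodes desmin, an intermediate filament of stellate and muscle cells. It was at 2.342, 1.655 and 1.555 FPKM in the NC mice, 1.098, 1.187 and 4.469 in the IVF mice and 0.403, 3.005 and 0.091 in the FET mice. The FET mice held both the lowest value of all, which rested on 1.0 fragment in mouse 4, and the second highest, in mouse 3. The limma difference was -0.63 ± 0.61 in FET against NC (adjusted p = 0.725) and -0.68 ± 0.61 in FET against IVF (adjusted p = 1). It was -1.19 without FET mouse 3 and -0.26 without FET mouse 4 against NC. Against IVF it was -1.24 and -0.3 without these mice and -0.23 without IVF mouse 4. A pseudocount of 0.1 gave -1.52 in both comparisons. Rescaled FPKM was 1.141 to 2.866 in NC, 1.247 to 3.22 in IVF and 0.231 to 2.669 in FET, with limma differences of -0.51 ± 0.48 (adjusted p = 0.616) in FET against NC and -0.72 ± 0.48 (adjusted p = 0.665) in FET against IVF.

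Lrat (ENSMUSG00000028003, chr3:82892579-82903973, minus strand) encodes the enzyme that esterifies retinol for storage. Its FPKM was 0.458, 0.635 and 0.509 in the NC mice, 0.179, 1.394 and 1.612 in the IVF mice and 0, 1.002 and 1.295 in the FET mice. The NC mice lay close together, and in both other groups mouse 2 lay below all NC mice while mice 3 and 4 lay above them. The groups therefore overlapped in every comparison, with exact permutation p values of 0.4 to 0.9 as FPKM. They also overlapped after rescaling, at 0.373 to 0.561 in NC, 0.524 to 1.464 in IVF and 0 to 3.275 in FET.

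**Figure D4:**
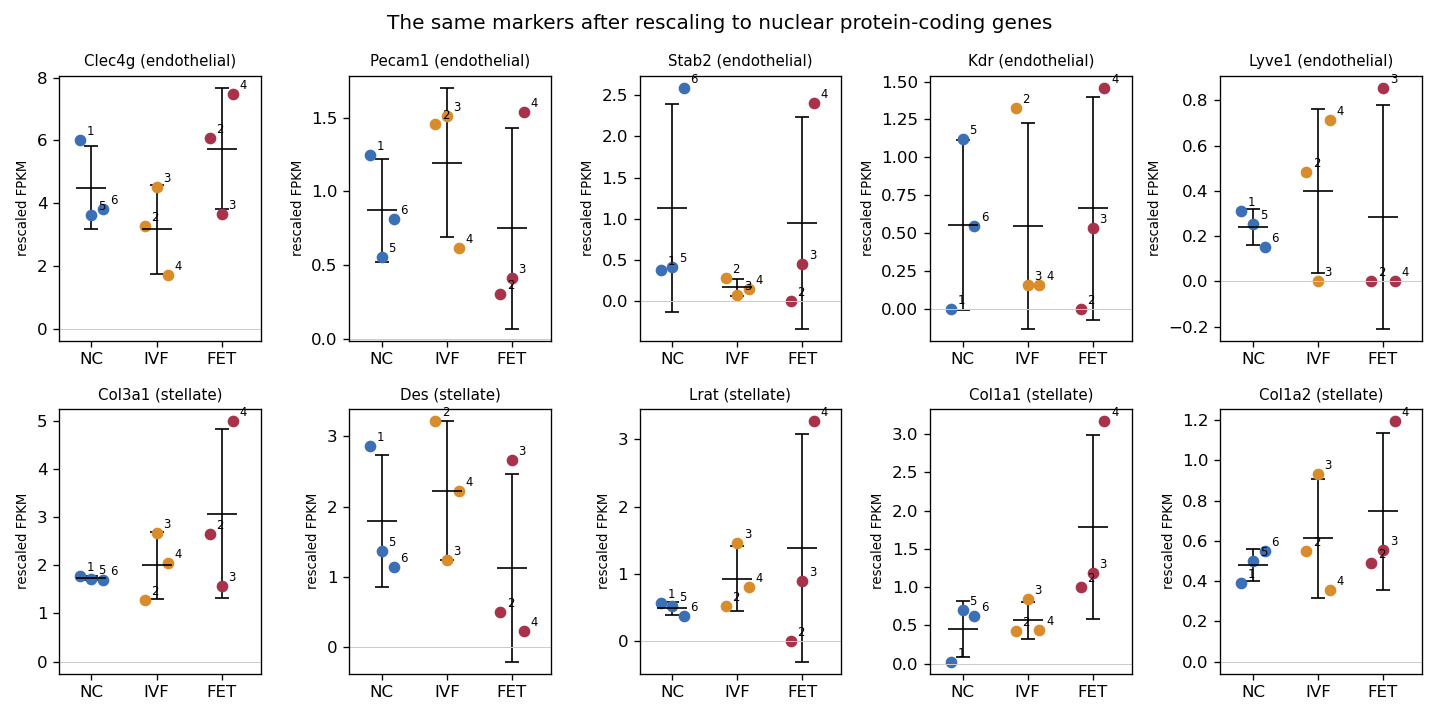
Rescaled FPKM (y axis) of the 10 markers by group (x axis), drawn as in the plot of deposited FPKM, with mean ± SD of 3 mice. FET mouse 4 is the highest mouse for 7 of the markers, Clec4g, Col1a1, Col1a2, Col3a1, Kdr, Lrat and Pecam1, and the FET mice of Col1a1, at 1.005 to 3.17, lie above the other 6 mice.

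Over the 9 mice, after rescaling, Pearson's r of log2(value + 1) was 0.76 to 0.80 between the 3 collagen chains, and 0.66 to 0.82 between Lrat and each of them. Des ran the other way, with r of -0.62 to -0.83 against the collagens. The median over the 10 stellate pairs was 0.67, that over the 10 endothelial pairs was 0.15, and that over the 25 mixed pairs was 0.34. The lowest endothelial pair was Clec4g and Lyve1 at -0.71. The 9 points of each pair share their library, its depth and its rescaling factor, FET mouse 4 is extreme in several of them, and these values are a description. The tested protein-coding genes most like Stab2 over the 9 mice were Pnpla7 (r = 0.893), Gtpbp2 (0.889), Apol9a (0.859), Mup19 (0.85) and Ttc7 (0.848). Those most like Col3a1 were Mpnd (0.924), H2afx (0.923), Mrpl35 (0.923), Faf2 (0.914) and Nudc (0.91). They were picked as the highest of 5724 and 5723 genes.

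No marker passed the test between any groups. Only Clec4g, Col3a1 and Des averaged 1 FPKM or more and entered the limma test, and 0 of these 3 passed an adjusted p under 0.05 (Benjamini-Hochberg over 6755 genes) in any comparison, nor an unadjusted p under 0.05. None was called either when IVF mouse 2 and FET mouse 2 were omitted together, a check chosen after the data had been seen. The same test called 16 genes in FET against NC, which is 0.237% of those tested, 4 in IVF against NC (0.0592%) and 6 in FET against IVF (0.0888%), so calls were rare throughout. The median log2 fold change of the 3 was -0.25 in FET against NC beside -0.46 over all tested genes, 0.02 beside -0.25 in IVF against NC, and -0.01 beside -0.2 in FET against IVF. Rescaling moved the median over all tested genes to -0.06, -0.07 and 0.02, and that of the 3 markers to 0.28, 0.11 and 0.38.

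All 10 markers could be fitted when the filter was dropped. Of these, 0 were called in any comparison, and 7 of 10 were lower in FET than in NC, 3 of 10 lower in IVF than in NC and 6 of 10 lower in FET than in IVF. Beside these counts, 61.6%, 52.6% and 63% of all 27411 genes had a negative fold change. With rescaling as well, 4, 3 and 3 of 10 were lower, beside 52.7%, 43.8% and 57% of all genes, the adjusted p values of the markers were at least 0.541, and Col1a1 in FET against NC (0.9 ± 0.37, with a difference of 0.56 when FET mouse 4 was omitted) was the one marker with an unadjusted p under 0.05 in limma, at 0.0379, beside 9.1% of all genes in that fit.

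**Figure D5:**
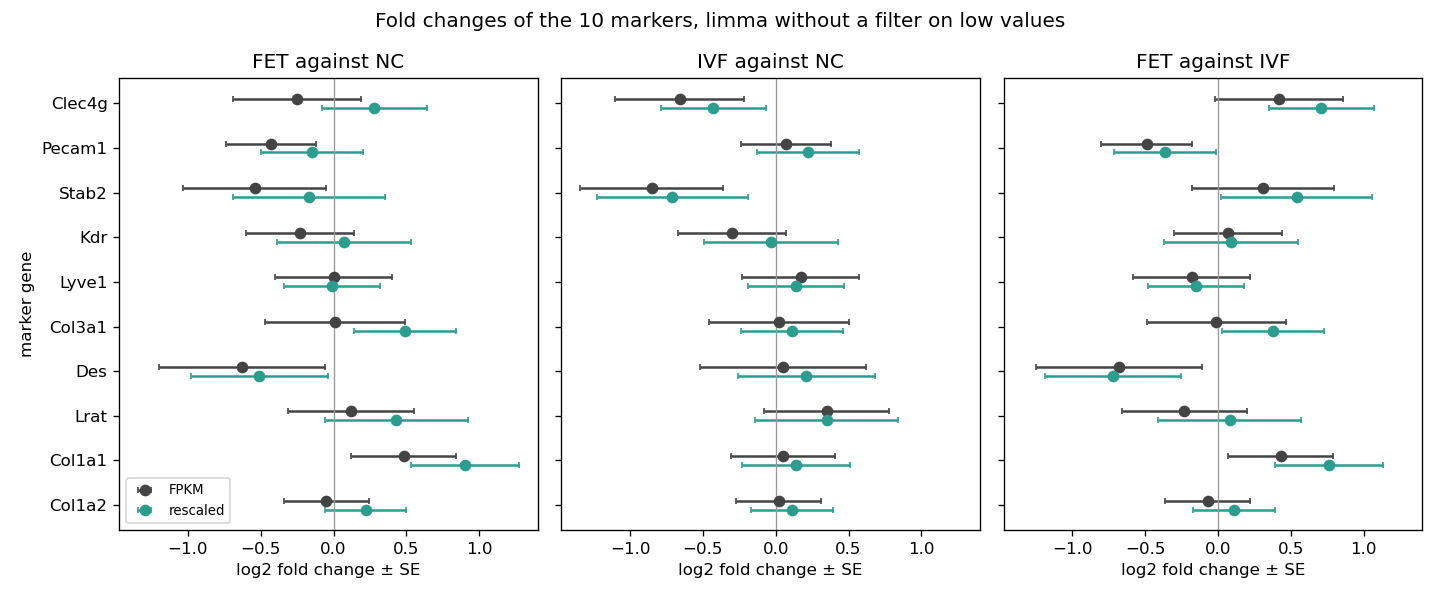
Log2 fold change ± SE (x axis) of the 10 markers (y axis) in each comparison, from limma without a filter on low values, for FPKM and rescaled FPKM. In FET against NC, Col1a1 lies furthest above 0, at 0.48 as FPKM and 0.9 rescaled, and Des furthest below 0, at -0.63 and -0.51. The Col1a1 values include NC mouse 1, at 0.023 FPKM on 1.0 fragment, and were not fitted without that mouse.

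Non-overlap of the groups was read against all 10966 genes with a mean FPKM at or above that of Lyve1, the lowest marker. As FPKM, 1 of 10 markers (Pecam1) lay lower in every FET mouse than in every NC mouse, beside 17.5% of those genes, and 2 of 10 (Clec4g and Stab2) lay lower in every IVF than in every NC mouse, beside 6.9%. After rescaling, 1 of 10 (Col1a1) lay higher in every FET than in every NC mouse, beside 7.43%, and the same gene lay higher in every FET than in every IVF mouse, beside 5.18%. Stab2 remained lower in every IVF than in every NC mouse, beside 9.94%. Counts of 1 or 2 in 10 are too few to set apart from these shares.

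Further genes listed for these cells and for related pathways were read, and none of the tested ones changed in any comparison, as FPKM or rescaled. Of 32 other endothelial genes 13 were tested. Their median log2 fold change was -0.18 in FET against NC, -0.32 in IVF against NC and 0.27 in FET against IVF, beside -0.46, -0.25 and -0.2 over all tested genes. As FPKM none had an unadjusted p under 0.05 in limma in any comparison. After rescaling the medians were 0.06, -0.08 and 0.35. Then 1 of 13 had such a p in FET against NC (Ramp2, by 1.48), beside 16.7% of all tested genes. In FET against IVF 1 of 13 did (Egfl7, by 0.91), beside 9.4%. The summed rescaled FPKM of the 32 genes was 43.1 to 44.3 in NC, 24.0 to 48.1 in IVF and 49.4 to 72.2 in FET. As deposited FPKM these sums overlapped, at 36.2 to 59.4, 16.4 to 48.2 and 28.5 to 55.6. Plvap, a protein of endothelial diaphragms, was at 7.25 ± 0.83 FPKM in NC, 7.66 ± 5.34 in IVF and 4.86 ± 2.48 in FET (SD, n = 3), and Eng, a co-receptor for transforming growth factor beta, at 6.87 ± 4.29, 4.75 ± 2.61 and 5.46 ± 1.1. After rescaling Plvap was at 6.71 ± 1.88, 7.62 ± 4.71 and 6.66 ± 2.43 and Eng at 5.64 ± 2.76, 4.91 ± 1.18 and 9.13 ± 6.75, so the limma difference of Eng in FET against NC turned from -0.09 to 0.51.

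Of 25 other stellate genes 14 were tested. Their median was 0.14 in FET against NC, 0.34 in IVF against NC and -0.31 in FET against IVF, where the medians over all tested genes were -0.46, -0.25 and -0.2, and 6, 2 and 9 of the 14 were negative, beside 74.3%, 68.8% and 65.4% of all tested genes. After rescaling the medians were 0.58, 0.53 and -0.05 beside -0.06, -0.07 and 0.02, and 2, 1 and 7 were negative, beside 53.5%, 55.7% and 48.8%. The highest of the list, Ecm1, a secreted matrix protein, was at 14.27 ± 9.56 FPKM in NC, 20.85 ± 14.24 in IVF and 41.7 ± 22.91 in FET (SD, n = 3). Its FET against NC difference in limma was 1.5 ± 0.97 (adjusted p = 0.553), and 2.12 after rescaling (adjusted p = 0.0911). Angptl6, a secreted angiopoietin-like protein, was at 3.08 ± 1.67, 6.51 ± 4.99 and 10.02 ± 5.15 FPKM, with 1.44 ± 0.77 in FET against NC (adjusted p = 0.455) and 2.02 after rescaling (adjusted p = 0.0929). Both values miss the threshold. The summed rescaled FPKM of the 25 genes was 38.4 to 55.5 in NC, 57.4 to 107 in IVF and 95.2 to 157 in FET. As deposited FPKM these sums overlapped, at 45.4 to 62.6, 21.4 to 115 and 62.2 to 107. The mean rescaled FPKM of Ecm1 alone was 12.04, 19.08 and 55.35.

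Of 23 other matrix genes 5 were tested, with a median of -0.38 in FET against NC, beside -0.46 over all tested genes, and -0.09 beside -0.06 after rescaling. In IVF against NC it was 0.17 beside -0.25, and 0.4 beside -0.07 after rescaling, and in FET against IVF -0.5 beside -0.2, and -0.41 beside 0.02. In FET against NC, Col18a1 and Fn1 were both lower at an unadjusted p under 0.05 after rescaling, beside 9.5% of all tested genes. These p values were 0.0221 and 0.0154 in limma (adjusted p 0.235 and 0.22). In IVF against NC the rescaled difference was -1.23 for Col18a1 (unadjusted limma p 0.0164, adjusted p 0.855). For Fn1 it was -0.51 (unadjusted limma p 0.189), and 3.8% of all tested genes were lower at such a p under 0.05. The sum over the 23 genes was 43.0 to 86.4 FPKM in NC, 19.0 to 50.6 in IVF and 20.1 to 36.1 in FET. Rescaled it was 52.6 to 63.3, 25.2 to 55.7 and 32.1 to 50.9, so FET and NC did not overlap under either scaling. These sums include Col18a1 and Fn1, the highest 2 genes of the list, and no sum without them was taken. Which liver cells the transcripts of these 2 genes came from was not tested. Col18a1, a basement membrane collagen, was at 35.45 ± 12.84 FPKM in NC, 11.6 ± 5.35 in IVF and 10.96 ± 7.29 in FET (SD, n = 3), and differed by -1.74 ± 0.91 in FET against NC and -1.56 ± 0.91 in IVF against NC (adjusted p = 0.447 and 1). Fn1, fibronectin, which hepatocytes also make, was at 16.1 ± 4.29, 9.03 ± 4.37 and 4.61 ± 1.25 FPKM (-1.6 ± 0.81 in FET against NC, adjusted p = 0.424). Rescaled, Col18a1 was at 30.79 ± 3.99, 13.15 ± 5.54 and 14.41 ± 8.02 and Fn1 at 14.24 ± 0.47, 10.35 ± 4.93 and 6.46 ± 1.57. Of 18 retinoid genes 13 were tested, and 12 of these were negative in FET against NC with a median of -1.17, beside 74.3% of all tested genes and a median of -0.46. After rescaling 12 were negative with a median of -0.68, beside 53.5% and -0.06. In IVF against NC 11 of 13 were negative with a median of -0.63, beside 68.8% and -0.25. Rescaled, 10 were negative with a median of -0.3, beside 55.7% and -0.07. In FET against IVF 11 of 13 were negative with a median of -0.46, beside 65.4% and -0.2. Rescaled, 8 were negative with a median of -0.17, beside 48.8% and 0.02. Several of these genes are made by hepatocytes. In FET against NC the 10 hepatocyte genes had a median of -0.81 with 7 negative, or -0.17 with 6 negative after rescaling. Ttr is in both lists. The part of hepatocytes in the retinoid values was not tested. Ttr, the plasma partner of the retinol carrier, was at 2490.8 ± 1475.97 FPKM in NC, 1174.84 ± 865.84 in IVF and 719.05 ± 356.95 in FET (SD, n = 3). Rbp4, the plasma retinol carrier made by hepatocytes, was at 363.27 ± 190.05 FPKM in NC, 304.9 ± 248.98 in IVF and 125.6 ± 67.95 in FET. Rescaled, Ttr was at 2060.29 ± 940.47, 1062.32 ± 114.34 and 971.18 ± 276.33 and Rbp4 at 305.06 ± 102.37, 261.81 ± 40.08 and 159.63 ± 13.14. In FET against NC, 2 of the 13 retinoid genes were lower as FPKM at an unadjusted limma p under 0.05, and 4 of 13 after rescaling. The shares over all tested genes were 10.1% and 9.5%.

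The list of collagen processing genes and that of vascular growth factors and related genes gave 8 of 22 and 4 of 14 genes tested. Their medians were -0.36 in each for FET against NC, less negative than the -0.46 over all tested genes. After rescaling these medians were 0.03 and 0.1, beside -0.06. In IVF against NC the medians were 0.1 and -0.62 beside -0.25, or 0.19 and -0.34 beside -0.07 after rescaling. All 4 tested genes of the growth factor list were negative under both scalings, beside 68.8% and 55.7% of all tested genes. In FET against IVF the medians were -0.39 and 0.2 beside -0.2, or -0.13 and 0.42 beside 0.02. P4hb, a subunit of prolyl hydroxylase, was at 111.97 ± 14.51 FPKM in NC, 110.52 ± 93.75 in IVF and 67.79 ± 42.75 in FET (SD, n = 3). Bmp1, a procollagen protease, was at 8.06 ± 2.21, 4.75 ± 3.44 and 3.69 ± 2.16 FPKM. Rescaled, P4hb was at 102.05 ± 18.51, 95.96 ± 9.2 and 81.96 ± 18.87 and Bmp1 at 7.11 ± 0.24, 4.48 ± 0.39 and 4.65 ± 1.95. Vegfa, the ligand of the receptor encoded by Kdr, was at 26.39 ± 20.41, 12.22 ± 6.73 and 16.76 ± 7.47 FPKM. It was at 21.11 ± 15.51, 13.32 ± 6.06 and 22.88 ± 7.61 after rescaling, so its limma difference in FET against NC turned from -0.12 to 0.5. Vegfb was at 5.09 ± 2.29, 3.39 ± 3.22 and 2.28 ± 3.95 FPKM. Of the 4 tested genes of the growth factor list, only Vegfb was lower at an unadjusted p under 0.05 in FET against NC. The share over all tested genes was 10.1%. Its limma difference was -1.54 ± 0.71 (adjusted p = 0.379). Its FET values were 0, 6.85 and 0 FPKM in mice 2, 3 and 4, and after rescaling its unadjusted limma p was 0.0552, with rescaled levels of 4.35 ± 0.99, 2.66 ± 0.88 and 2.03 ± 3.51.

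Markers of other cells moved between mice as well, and their part in these results was not tested. The 11 Kupffer cell genes summed to a rescaled FPKM of 32.1 to 37.4 in NC, 26.4 to 53.6 in IVF and 48.4 to 128 in FET, and the 5 erythroid genes to 278 to 1040, 194 to 259 and 449 to 722. The 6 bile duct genes summed to 7.83 to 14.1, 4.53 to 5.15 and 4.21 to 12.2, with Cftr at 0 in all mice. The 9 leukocyte genes summed to 1.23 to 4.03, 0.767 to 6.52 and 0.0959 to 1.1, with Ly6g at 0 in all mice, and the 4 mesothelial genes to 7.04 to 24.6 over all mice. After rescaling the Kupffer sums of FET and NC did not overlap, nor did the erythroid and bile duct sums of IVF and NC. The rescaled erythroid sums of FET and IVF did not overlap either. As deposited FPKM these all overlapped, with Kupffer sums of 26.2 to 48.5 in NC and 19.1 to 102 in FET. Erythroid sums were then 335 to 850 in NC, 78 to 388 in IVF and 177 to 591 in FET. Bile duct sums were 8.01 to 17 in NC and 1.55 to 10.3 in IVF. The leukocyte sums of FET lay below those of NC under both scalings, at 0.0379 to 0.908 against 1.48 to 3.29 as FPKM. By mean FPKM the highest genes of these lists were Apoa2 (10836.18) and Alb (7669.22) for hepatocytes, Clec4f (12.61) and C1qa (9.34) for Kupffer cells, Spp1 (6.16) and Krt19 (1.2) for bile duct, S100a9 (1.41) and S100a8 (0.52) for leukocytes, Hba-a1 (173.15) and Hbb-bs (100.52) for blood, and Krt8 (14.11) and Msln (0.66) for mesothelium.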

How the data were processed

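Liver RNA of 9 mice (3 per group) was measured by RNA sequencing, with groups taken from the labels. According to the study's methods, total RNA was isolated with TRIzol, sequenced on an Illumina system, and the reads were trimmed and mapped to the genome. The authors deposited FPKM values, with no further scaling between mice stated. The submitters' processing notes name, among other tools and without roles, FastQC 0.11.5, STAR 2.5.3a and StringTie 1.3.1c. The build, annotation and strandedness are not given in the sources used here. Symbols, exon lengths and positions came from GENCODE vM21 (GRCm38), which matched 55154 of 55335 identifiers, and promoter windows from RefSeq. The table holds no counts, so no count test was run.

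Depth was estimated from steps of up to 8 fragments among low values of genes with 1 transcript and at least 1000 exonic bases. Between 51.8% and 64.3% of such values lay within 2% of a step, against 9.9% to 17.2% by chance. Rescaled FPKM multiplied each mouse by the mean over mice of the summed FPKM of nuclear protein-coding genes divided by its own sum.

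Genes averaging 1 FPKM or more (6755) were tested on the log2(FPKM + 1) scale by limma 3.58.1 (R 4.3.3), two-sided, in 1 model of 3 groups with a variance trend. Changed means a Benjamini-Hochberg adjusted p under 0.05. Fold changes on this scale understate those of low genes. Members below the filter were compared by two-sided exact permutation tests (smallest p 0.1). The depth estimate and the limma procedure were tested on simulated data. For limma these were independent normal values with each gene's mean and spread, without scaling differences between libraries. They do not measure the power for markers with few fragments. Nothing in the sources says that same-group mice came from separate litters, so p-values measure the spread between these mice.

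The members and lists were chosen with earlier results of these data known. Named genes were the 10 members, the highest 2 genes of each other list, and the 5 genes most like Stab2 and Col3a1. Pgk1, Cftr, Ly6g, Ramp2 and Egfl7 were named after their values were seen. Alternatives comprised rescaling, quantile normalization, median-ratio scaling, no filter, a pseudocount of 0.1, a fit of only the groups compared, no variance trend, a replicate block, only the mice with label numbers from 67 to 76 (all IVF and FET mice but NC mouse 1 alone) and leaving out each mouse. Unfiltered rescaled values, the omission of 2 mice together and the values of Stab2 and Col1a1 without 1 mouse were added after the data had been seen.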

Additional observations from a re-analysis of the deposited data

How the results depend on the processing

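Clec4g, Col3a1 and Des were not called under any alternative, and 120 of 144 alternative values of these 3 kept their direction. The other 7 markers were fitted in the 2 unfiltered settings only and were not called there. The lowest adjusted p of a marker in limma was 0.391. Label numbers from 67 to 76 leave NC mouse 1 as the only NC mouse, since NC mice 5 and 6 carry higher numbers, and that mouse is then assumed to vary like the other groups. The cause of a change below was not tested. The number of genes called in FET against NC, 16, was 0 without a filter, 0 when each fit held only its own pair of groups, 0 without a variance trend, 26 after quantile normalization, 6 with the mice numbered 67 to 76 (1 NC mouse) and, in the alternatives chosen after seeing the data, 5 (unfiltered, rescaled) and 0 (IVF mouse 2 and FET mouse 2 omitted). The number in IVF against NC, 4, was 0 with a pseudocount of 0.1, without a filter, under median-ratio scaling, quantile normalization, rescaling or unfiltered rescaling, with only that pair of groups and without a trend. It was 2 with the mice numbered 67 to 76 (1 NC mouse) and 12 with both mice 2 omitted. The number in FET against IVF, 6, was 0 without a filter, with only that pair, without a trend and with both mice 2 omitted, and 1 for unfiltered rescaled values. Unadjusted p values under 0.05 were held by 2618, 1580 and 829 genes without a filter.

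Leaving out 1 mouse gave 1 to 83 calls in FET against NC (83 without NC 1, 57 without FET 2, 1 without FET 3), 0 to 24 in IVF against NC (24 without NC 1, 1 without IVF 2, 0 without IVF 3 or IVF 4) and 0 to 10 in FET against IVF (10 without IVF 2, 0 without IVF 4, 2 without FET 3, 3 without FET 4). The median over the 3 tested markers was then -0.37 to -0.09, -0.4 to 0.29 and -0.53 to 0.39. In FET against NC this median was 0.16 under median-ratio scaling, 0.13 under quantile normalization and 0.28 rescaled, and over all 10 markers it was 0.14 rescaled without a filter.

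For the 3 tested markers, directions turned as follows. Clec4g in FET against NC was 0.16, 0.13, 0.28 and 0.28 under those 4 scalings, and -0.1 in FET against IVF with both mice 2 omitted. Col3a1 in FET against NC was -0.03 with both mice 2 omitted, -0.11 without NC 1 and -0.03 without FET 2. Col3a1 in IVF against NC was -0.15 with a pseudocount of 0.1, -0.11 without NC 1 or IVF 3 and -0.38 without IVF 4, against 0.54 without IVF 2. Col3a1 in FET against IVF was 0.17 with that pseudocount, 0.21, 0.3, 0.38 and 0.38 under the 4 scalings, 0.12 without IVF 3, 0.39 without IVF 4 and 0.04 without FET 3. Des in IVF against NC was 0 with the pseudocount of 0.1, -0.19 against NC mouse 1 alone, -0.02 without NC 6 and -0.4 without IVF 4. Among the other 7 markers, rescaling the unfiltered values turned Kdr from -0.23 to 0.07 and Col1a2 from -0.05 to 0.22 in FET against NC, and Lrat from -0.23 to 0.08 and Col1a2 from -0.07 to 0.11 in FET against IVF.

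IVF and FET shared the mouse numbers 2, 3 and 4. Over the tested genes, FPKM values centred within each group correlated at -0.13, 0.02 and -0.26 between same-numbered mice. Pairs with different numbers gave -0.14 to 0.29. With 3 mice per group and no rescaling, these correlations cannot decide whether the numbers mark pairs. With the replicate block, 2 genes were called in FET against IVF, and the median over the 3 markers stayed at -0.01. FET libraries held 92 to 214 fragments over all 10 markers, which limits what could be detected for the low ones.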
